A study of Mus musculus with 22 samples.

Results

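The 9 genes described here, Drd1, Tac1, Pdyn, Isl1, Slc35d3, Eya1, Sfxn1, Ebf1 and Zfp521, mark the striatal projection neurons that express the dopamine D1 receptor (D1 neurons). They were taken by symbol from the deposited count tables, where all 9 were found among 55341 genes, and all 9 passed the filter on low counts in every comparison. The libraries came from mouse striatum. Mutant animals (KO, labelled as model mice of fragile X syndrome, n = 5, numbers 2, 3, 9, 10 and 11) were compared with wild-type animals (WT, n = 6, numbers 1, 4, 12, 13, 14 and 20). Animals of both genotypes expressed the ribosomal protein Rpl10a fused to EGFP in Drd1-expressing neurons, so the tag was present in the controls too. From each animal the antibody pulldown of tagged ribosomes (IP) and the cleared lysate before pulldown (input) were sequenced, which gives 22 libraries. The labels gave no age, sex, strain, litter or promoter of the transgene.

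Projection neurons make up most of the striatum and fall into D1 neurons, which send their axons to the substantia nigra, and D2 neurons, which express the dopamine D2 receptor and project to the globus pallidus. The D1 receptor couples to a stimulatory G protein and raises cyclic AMP. D1 neurons release dynorphin and substance P beside GABA, and transcription factors such as Isl1 and Ebf1 act during their development in the mouse. Fmr1, the gene affected in fragile X syndrome, encodes FMRP, an RNA-binding protein found on ribosomes.

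Levels are given in CPM, that is counts relative to the total of the library, scaled by the TMM method within the libraries of an assay. Fmr1 lay at 9.44 to 13.2 CPM in KO IP against 79.8 to 125 CPM in WT IP, and at 9.68 to 12.9 CPM in KO input against 51.6 to 63.4 CPM in WT input, so no library went against its label. Total counts were 13759027 to 49669222 in KO IP, 9375611 to 82376192 in WT IP, 28438717 to 43276230 in KO input and 25164548 to 38270808 in WT input. Mitochondrial ribosomal RNA took under 1% of IP counts, and 30.6% to 53.2% of KO input counts against 25.1% to 37.1% of WT input counts. Animals 1, 3, 9 and 12, which are 2 KO and 2 WT animals, stood apart by markers of cortical excitatory neurons. Slc17a7, the glutamate transporter of those neurons, lay at 22 to 97.4 CPM in their input libraries and at 0.55 to 2.86 CPM in the input of the other 7 animals. Some values are therefore also given without these 4 animals.

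The genes lie on 7 chromosomes (GRCm38/mm10, GENCODE annotation), all are protein-coding, and no exon base of any of them overlaps an exon of another annotated gene. Drd1 (chromosome 13, 54051183 to 54055705, minus strand) and Sfxn1 (chromosome 13, 54071869 to 54108342, plus strand) are neighbours that start away from each other, with 16163 bases and no other annotated gene between them. Isl1 lies on the same chromosome (116298281 to 116309689, minus strand). Tac1 lies on chromosome 6 (7554879 to 7565834, plus strand), Pdyn on chromosome 2 (129686565 to 129699844, minus strand) and Slc35d3 on chromosome 10 (19847916 to 19851459, minus strand). Eya1 lies on chromosome 1 (14168954 to 14310235, minus strand) and Ebf1 on chromosome 11 (44617317 to 45008091, plus strand).

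Promoter windows from RefSeq (GRCm38.p6), 250 bases before to 50 bases after a start, were matched for 7 of the 9 genes. The windows below show the neighbours Drd1 and Sfxn1, which share a locus but not a degree of enrichment in the pulldown, and the neuropeptide and transcription factor genes Tac1 and Isl1. Capitals mark every match, on either strand, to the core TGACG of the cyclic AMP response element (CRE), the GC box GGGCGG and the CCAAT box.
Drd1, chr13:54055609-54055908, minus strand: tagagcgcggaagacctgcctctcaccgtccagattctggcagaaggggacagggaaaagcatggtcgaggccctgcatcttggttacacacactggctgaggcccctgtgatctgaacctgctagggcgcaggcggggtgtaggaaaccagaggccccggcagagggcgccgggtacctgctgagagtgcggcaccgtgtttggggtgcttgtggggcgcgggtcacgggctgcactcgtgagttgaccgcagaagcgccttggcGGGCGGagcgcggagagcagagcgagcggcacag
Sfxn1, chr13:54071595-54071894, plus strand: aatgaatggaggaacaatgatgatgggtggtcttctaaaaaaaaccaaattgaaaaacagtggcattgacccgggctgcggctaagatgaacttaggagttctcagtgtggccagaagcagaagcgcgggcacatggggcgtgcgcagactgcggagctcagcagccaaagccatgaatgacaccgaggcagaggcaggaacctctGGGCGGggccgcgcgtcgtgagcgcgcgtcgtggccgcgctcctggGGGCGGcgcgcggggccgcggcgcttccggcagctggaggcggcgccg
Tac1, chr6:7554811-7555110, plus strand: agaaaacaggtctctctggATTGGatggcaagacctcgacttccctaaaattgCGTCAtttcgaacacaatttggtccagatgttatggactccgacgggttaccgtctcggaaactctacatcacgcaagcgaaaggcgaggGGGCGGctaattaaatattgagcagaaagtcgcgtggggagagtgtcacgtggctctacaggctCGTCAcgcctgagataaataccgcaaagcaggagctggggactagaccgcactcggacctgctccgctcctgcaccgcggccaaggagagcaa
Isl1, chr13:116309639-116309938, minus strand: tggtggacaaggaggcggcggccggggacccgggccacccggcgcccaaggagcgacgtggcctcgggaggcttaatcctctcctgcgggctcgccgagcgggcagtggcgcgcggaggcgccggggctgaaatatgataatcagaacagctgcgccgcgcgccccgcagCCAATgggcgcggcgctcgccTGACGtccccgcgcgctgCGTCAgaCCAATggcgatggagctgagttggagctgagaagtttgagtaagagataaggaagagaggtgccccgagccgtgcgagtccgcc
Tac1 and Isl1 each held 2 copies of TGACG, whose first bases lay at -197 and -43 in Tac1 and at -59 and -41 in Isl1, counted from the start as 0. The Drd1 and Sfxn1 windows held none, but each held GGGCGG. Among the windows not shown, that of Slc35d3 and 1 window of Ebf1 each held 1 copy of TGACG. The other Ebf1 window, the second Drd1 window and both Pdyn windows held none, so TGACG was not a trait of the neuropeptide genes. Over all 32851 RefSeq promoter windows of this length, 20.8% held TGACG, 35.7% held GGGCGG and 37.4% held CCAAT. The full CRE TGACGTCA, found in 1.79% of all windows, the palindrome known to be bound by Ebf1, found in 0.904%, and the TATA box TATAAA, found in 13.6%, were in none of the windows of the 7 genes. A match describes letters only, and a window without one gives no information on the binding of a factor.

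The question of the pulldown is which mRNAs it enriched, and all 9 D1 genes rose in IP over input in both genotypes. The median log2 fold change of the 9 was 1.61 in KO animals (n = 5) and 1.25 in WT animals (n = 6), against medians of -0.11 in KO and -0.11 in WT over all 17311 genes tested. By edgeR's quasi-likelihood test with Benjamini-Hochberg adjustment at 0.05, 20.9% of genes were called higher in KO animals and 21.8% in WT animals, and DESeq2 also called all 9, where it called 19.4% of genes higher in KO and 20.5% in WT. In each of the 11 animals all 9 genes had more CPM in IP than in the input of the same lysate, which held for 17.5% of all genes. These ratios and fold changes use a scaling common to all 22 libraries, so they are smaller than the ratio of the CPM levels scaled within each assay.

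The receptor, the object of the labelling, was 3.06-fold higher in IP than in input in KO animals and 2.58-fold higher in WT animals. Drd1 lay at 560.5, 704.5, 631.2, 649.4 and 694.9 CPM in the IP of KO animals 2, 3, 9, 10 and 11, against 533 to 780 CPM (median 711) in WT IP. In input it lay at 147.9, 163.2, 125.8, 190.9 and 161.8 CPM in the same KO animals, against 144 to 242 CPM (median 199) in WT animals. Every IP library lay above every input library, while the genotypes overlapped in both assays. The log2 fold change of IP over input was 1.61 ± 0.12 (SE, edgeR adjusted p = 1.47e-11) in KO and 1.37 ± 0.11 (adjusted p = 4.52e-11) in WT.

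Among the secreted peptides, Pdyn, the precursor of dynorphin, was enriched more than Tac1, the precursor of substance P and neurokinin A. Pdyn had a log2 fold change of IP over input of 1.38 ± 0.19 (SE) in KO and 1.30 ± 0.18 in WT, and Tac1 one of 0.94 ± 0.11 in KO and 0.77 ± 0.10 in WT. Within animals the log2 ratio of Pdyn exceeded that of Tac1 in all 11. The Tac1 log2 ratio was 0.63, 1.14, 1.35, 0.82 and 0.86 in KO animals 2, 3, 9, 10 and 11, against 0.66 to 0.85 in WT animals. The highest KO value, of animal 9, came with a Tac1 level in input of 108.4 CPM, below the 163.7 to 178.9 CPM of the other 4 KO inputs.

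The transcription regulators were spread over the whole range of the list. Isl1, a LIM homeodomain factor that also marks cholinergic interneurons, had log2 ratios of 1.31, 1.46, 2.99, 1.69 and 1.94 in KO animals 2, 3, 9, 10 and 11, against 0.99 to 1.78 (median 1.20) in WT animals. Animal 9 stood highest, and its input held 135 Isl1 reads, the fewest of the 22 libraries, so this ratio is the least precise. Ebf1, a helix-loop-helix factor needed for the differentiation of D1 neurons in the mouse, rose in IP over input by a log2 fold change of 1.79 ± 0.16 (SE) in KO and 1.54 ± 0.14 in WT. Eya1, a phosphatase and co-activator of sine oculis homeobox factors, rose by 1.68 ± 0.10 in KO and 1.60 ± 0.09 in WT. Zfp521, a zinc finger protein known as an antagonist of Ebf1 in mouse fat cells, rose least of the 9, by 0.47 ± 0.12 (adjusted p = 0.00137) in KO and 0.57 ± 0.11 (adjusted p = 5.61e-05) in WT.

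The transporters also differed from each other. Slc35d3, a member of the nucleotide sugar transporter family that the mouse needs for export of the D1 receptor from the endoplasmic reticulum, rose in IP over input by a log2 fold change of 1.62 ± 0.15 (SE) in KO and 1.20 ± 0.14 in WT. Sfxn1, a serine transporter of the mitochondrial inner membrane, rose by 0.83 ± 0.15 in KO and 0.63 ± 0.13 in WT. WT animal 20 had the highest Sfxn1 level in both assays, at 676.5 CPM in IP and 332.9 CPM in input, against at most 451.4 CPM in IP and 225.4 CPM in input in the other WT animals. These levels are scaled within each assay. On the scale common to all 22 libraries, the input of this animal lay at 386.7 CPM, above the lowest WT IP library at 315.3 CPM. IP and input libraries of Sfxn1 thus overlapped in WT on the common scale, and Sfxn1 was the only one of the 9 genes for which they did. On that scale, IP and input did not overlap for 9 of 9 genes in KO animals, as for 14.6% of all genes. In WT animals they did not overlap for 8 of 9, as for 13% of all genes.

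**Figure D1:**
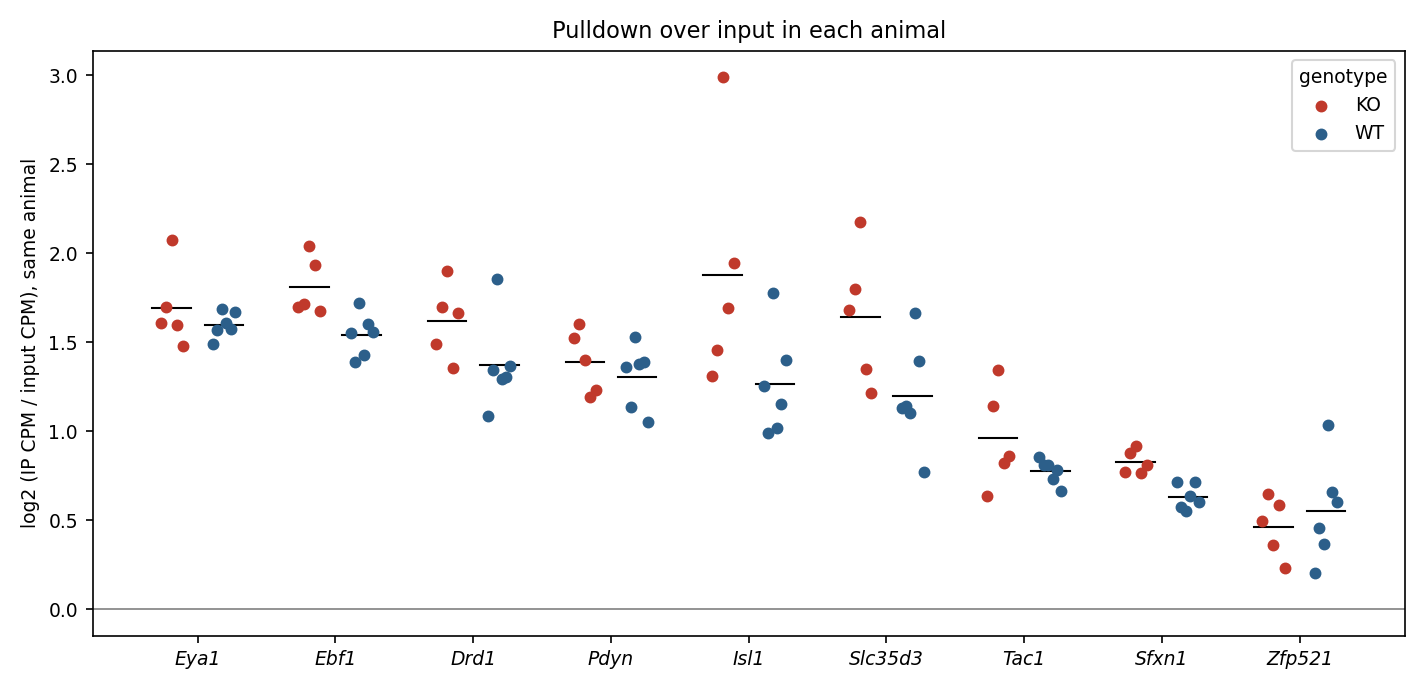
Log2 ratio of IP CPM over input CPM in the same animal (scaled over all 22 libraries) for the 9 D1 genes, with KO animals (n = 5, red) left of WT animals (n = 6, blue) and the group mean as a bar. All points lie above 0, Tac1, Sfxn1 and Zfp521 form the low end, and Isl1 in KO animal 9 is the highest point at 2.99.

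Ordered by fold change over all 17311 genes, 6 of the 9 stood near the top of the list. In KO animals Isl1 was at place 62, Ebf1 at 63, Eya1 at 75, Slc35d3 at 84, Drd1 at 86 and Pdyn at 135. In WT animals Eya1 was at place 77, Ebf1 at 85, Drd1 at 120, Pdyn at 140, Isl1 at 157 and Slc35d3 at 179. Tac1 (516 in KO and 899 in WT), Sfxn1 (832 in KO and 1673 in WT) and Zfp521 (3052 in KO and 2058 in WT) stood lower in both genotypes. The mean log2 ratios of these 3 genes per animal were 0.96, 0.83 and 0.46 in KO and 0.78, 0.63 and 0.55 in WT, while the mean log2 ratios of the other 6 lay between 1.39 and 1.88 in KO and between 1.20 and 1.60 in WT. The order among those 6 was not stable across animals. In KO, Isl1 exceeded Ebf1, the next in order, in 2 of 5 animals, and Eya1 exceeded Slc35d3 in 2 of 5. In WT, Eya1 exceeded Ebf1 in 3 of 6 animals and Drd1 exceeded Pdyn in 3 of 6.

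Levels of different genes can be compared only per length of exon, taken here as the merged exons of all annotated transcripts of a gene. The lengths of the transcripts expressed here were not measured, so the order below holds for this length only. In CPM per kilobase of merged exons, Drd1 was highest in IP, at 179 ± 15.9 (SD, n = 5) in KO and 187 ± 24.3 (n = 6) in WT. Tac1 followed at 122 ± 13.2 in KO and 120 ± 11.7 in WT, and Eya1 at 101 ± 7.65 in KO and 107 ± 8.88 in WT. Tac1 exceeded Eya1 in 4 of 5 KO and 5 of 6 WT libraries of IP. Sfxn1 (53.5 in KO and 47.5 in WT) and Pdyn (41.1 in KO and 46.1 in WT) were next, in this order in 5 of 5 KO libraries and 3 of 6 WT libraries. Slc35d3, Ebf1 and Isl1 lay between 9.47 and 17.1 CPM per kilobase in the IP of both genotypes, and Zfp521 was lowest at 4.66 ± 0.56 in KO and 6.74 ± 1.09 in WT.

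In input the 2 highest genes did not differ beyond their spread. Tac1 lay at 47.0 ± 8.64 CPM per kilobase (SD, n = 5) and Drd1 at 43.5 ± 6.56 in KO, with Tac1 above Drd1 in 3 of 5 libraries. In WT input Drd1 lay at 54.5 ± 8.92 (n = 6) and Tac1 at 52.8 ± 6.52, with Drd1 above Tac1 in 3 of 6 libraries. Isl1 was lowest in input, at 2.31 ± 0.78 in KO and 2.98 ± 0.51 in WT, below Zfp521 at 2.50 ± 0.20 in 3 of 5 KO libraries and below Ebf1 at 3.39 ± 0.50 in 5 of 6 WT libraries.

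**Figure D2:**
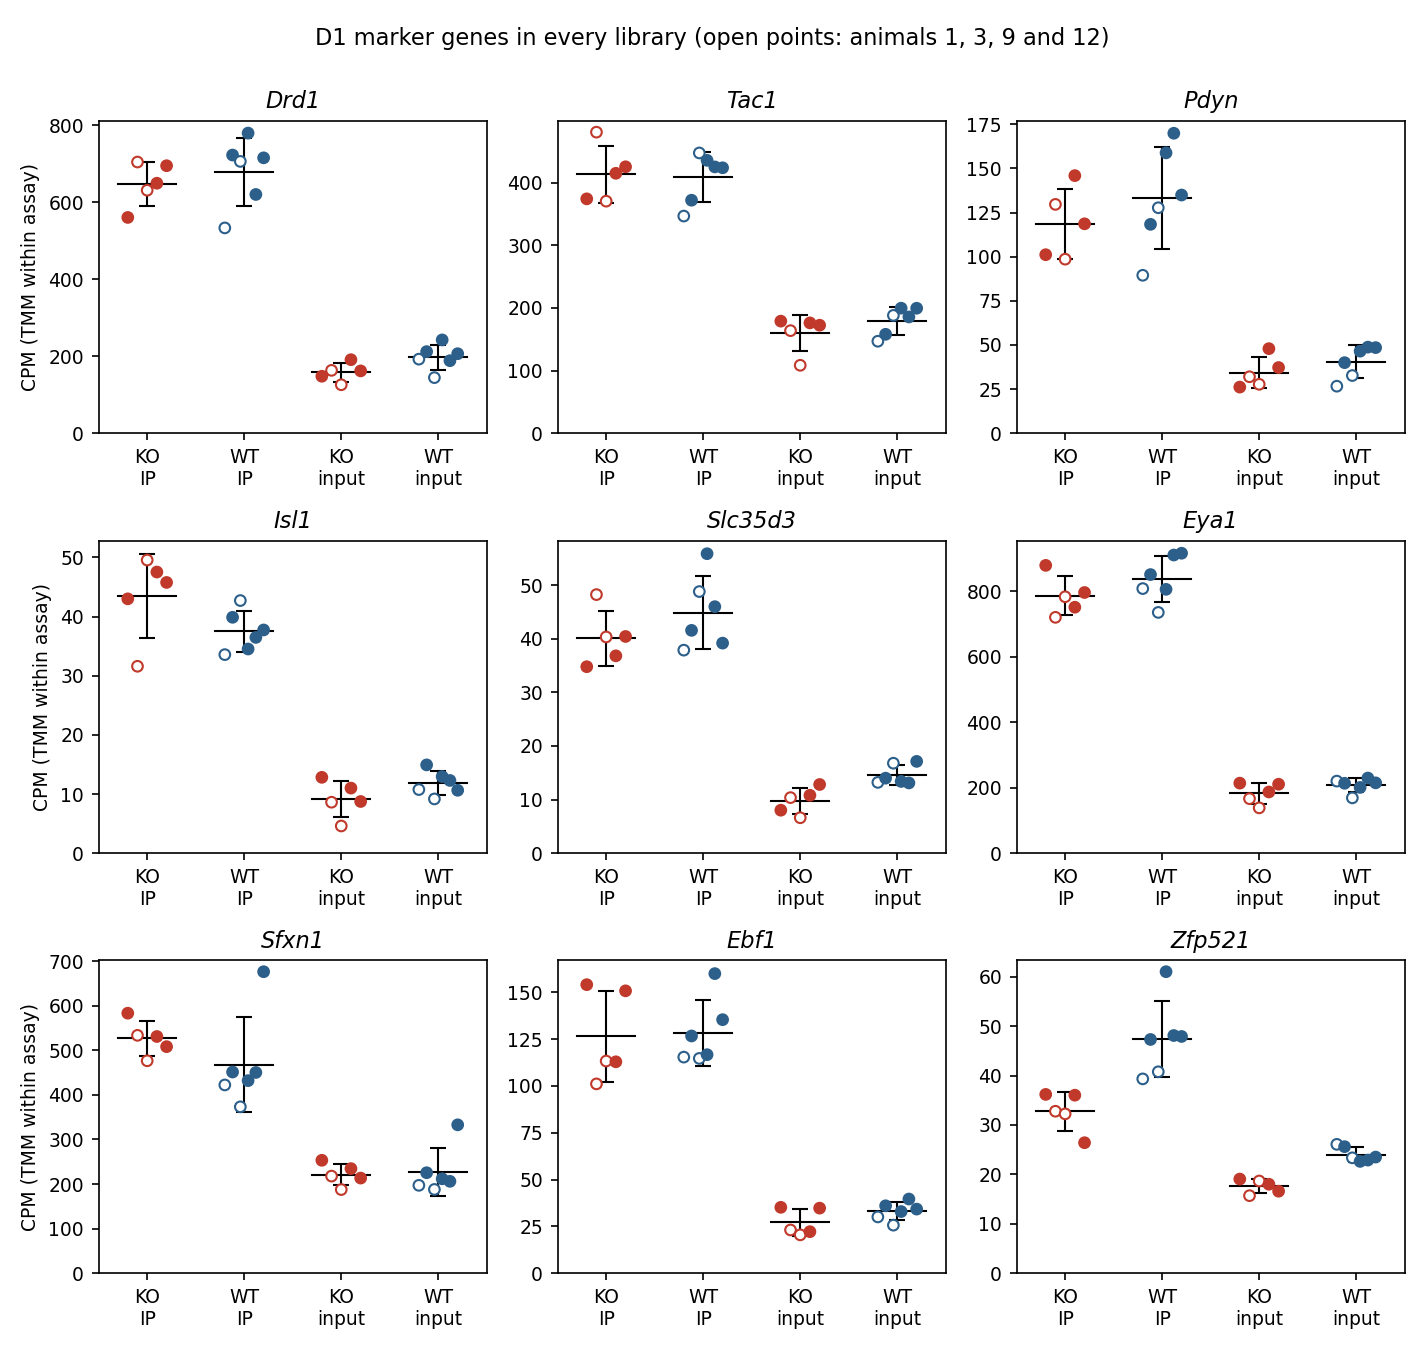
CPM of each D1 gene in every library, scaled within each assay, with the mean and SD of each group and KO (red) left of WT (blue). Open points are animals 1, 3, 9 and 12. IP and input are scaled separately, so their heights are not on one scale, and KO lies wholly below WT for Zfp521 in both assays and for Slc35d3 in input.

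Setting KO against WT asks whether the mRNAs of D1 identity changed with the mutation, on tagged ribosomes or in the lysate. No D1 gene passed the test in either assay. In IP, 0 of 9 were called by edgeR, where 0% of 14456 genes were called higher and 0.0553% lower, and 1 of 9, Zfp521, was lower at an unadjusted p under 0.05, as were 4.51% of genes. In input, 0 of 9 were called, where 0% of 16429 genes were called higher and 0.0183% lower, and 3 of 9, Drd1, Slc35d3 and Zfp521, were lower at an unadjusted p under 0.05, as were 3.68% of genes. By DESeq2, tried as an alternative, 1 of 9 was called lower in KO in each assay, Zfp521 both times. It called 0.759% of genes lower in IP and 0.162% in input, out of 8568 and 16084 genes with an adjusted p. Nothing in the labels names litters or cages, so the p-values measure the spread between these animals.

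Zfp521 (chromosome 18, 13687013 to 13972787, minus strand) was lower in every KO animal than in any WT animal, in both assays. In IP it lay at 36.2, 32.8, 32.2, 36.0 and 26.4 CPM in KO animals 2, 3, 9, 10 and 11, against 39.3 to 61.0 CPM (median 47.6) in WT animals. In input it lay at 19.1, 15.7, 18.7, 18.0 and 16.6 CPM in the same KO animals, against 22.6 to 26.1 CPM (median 23.4) in WT animals. The gap was narrow in both assays, between 36.2 and 39.3 CPM in IP and between 19.1 and 22.6 CPM in input. KO groups lay wholly below WT groups in 0.609% of genes in IP and in 0.396% in input.

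The log2 fold change of Zfp521 in KO over WT was -0.53 ± 0.12 (SE, 95% interval -0.79 to -0.28) in IP, with an edgeR adjusted p = 0.176. In input it was -0.45 ± 0.10 (95% interval -0.67 to -0.23), with an edgeR adjusted p = 0.276. DESeq2 gave -0.54 with an adjusted p = 0.00998 in IP and -0.44 with an adjusted p = 0.0285 in input. The authors' deposited table, which runs WT over KO and was likewise made with DESeq2, gave Zfp521 unshrunken log2 fold changes of 0.54 in IP (adjusted p = 0.0091) and 0.44 in input (adjusted p = 0.00913), and 0.43 in IP and 0.40 in input in its column of shrunken values. IP and input of an animal come from one lysate, so the assays are not independent of each other. Leaving out 1 animal at a time gave -0.58 to -0.45 in IP and -0.48 to -0.41 in input, and no edgeR call in either. Within the 4 animals rich in cortical markers, Zfp521 in IP lay at 32.2 to 32.8 CPM in KO against 39.3 to 40.8 CPM in WT, and within the other 7 at 26.4 to 36.2 CPM in KO against 47.3 to 61.0 CPM in WT.

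Slc35d3 separated the genotypes in input only. It lay at 8.01, 10.4, 6.61, 10.8 and 12.8 CPM in the input of KO animals 2, 3, 9, 10 and 11, against 13.1 to 17.1 CPM (median 13.7) in WT input. The highest KO value, of animal 11, lay close to the lowest WT value. The log2 fold change was -0.59 ± 0.17 (SE, 95% interval -0.93 to -0.24, edgeR adjusted p = 0.456). In IP, Slc35d3 lay at 34.8 to 48.2 CPM in KO against 37.9 to 55.9 CPM in WT, with overlap and a log2 fold change of -0.16 ± 0.12 (edgeR adjusted p = 0.825), which was -0.089 without WT animal 13 and -0.296 without animals 1, 3, 9 and 12, not called in either. In the authors' deposited table, Slc35d3 in input had an adjusted p = 0.113.

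For the other 7 genes the intervals bound what these libraries could miss. In IP, Drd1 had a log2 fold change in KO over WT of -0.07 (95% interval -0.25 to 0.12), Tac1 of 0.02 (-0.15 to 0.19), Eya1 of -0.09 (-0.24 to 0.05) and Ebf1 of -0.02 (-0.26 to 0.22). Pdyn was the least certain of the 9, at -0.17 (-0.48 to 0.15), and Isl1 and Sfxn1 had positive values, at 0.22 (-0.03 to 0.46) and 0.17 (-0.08 to 0.42). Single animals moved several of these small values by over 1.5 times. Sfxn1 was at 0.306 without WT animal 20 (edgeR adjusted p = 0.196), Pdyn ranged from -0.259 without WT animal 1 to -0.081 without WT animal 14, and Drd1 from -0.129 without WT animal 1 to -0.018 without KO animal 2. Without animals 1, 3, 9 and 12, Drd1 was at -0.164, Pdyn at -0.259 and Sfxn1 at 0.104, none called. In IP, 6 of 9 genes had a log2 fold change below 0, as did 49.3% of all genes.

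In input all 9 had a log2 fold change below 0, with a median of -0.28, where 49.5% of all genes were below 0. Drd1 was at -0.32 ± 0.12 (SE, edgeR adjusted p = 0.605), Isl1 at -0.36 ± 0.21 and Ebf1 at -0.28 ± 0.15, and Sfxn1 was nearest to 0 at -0.04 ± 0.13. In a bulk lysate, fewer D1 neurons and less RNA per neuron cannot be told apart. Markers of D2 neurons and markers shared by both neuron types lay on the same side, with 7 of 7 D2 markers (median -0.20) and 18 of 18 shared markers (median -0.22) below 0, none of them called. The summed CPM of the 9 D1 genes in input was 638 to 898 in KO against 797 to 1090 in WT, and that of the D2 markers 459 to 800 in KO against 715 to 914 in WT. The D1 sum divided by the D2 sum was 1.11 to 1.39 in KO input against 1.08 to 1.24 in WT input, so it overlapped between genotypes. The summed CPM of cortical markers in input was 126 to 609 (median 150) in KO against 128 to 370 (median 146) in WT, with none of the 8 markers tested called, and it was highest in KO animal 9, which had the lowest level of 7 of the 9 D1 genes among KO inputs. Leaving out this animal alone gave log2 fold changes in input of -0.047 for Tac1, -0.185 for Isl1, -0.087 for Eya1, -0.187 for Ebf1 and 0.027 for Sfxn1. Without the 4 animals rich in these markers, 9 of 9 D1 genes were still below 0 (median -0.22), where 49.5% of all genes were below 0. In the same setting 4 of 7 D2 markers (median -0.05) and 12 of 18 shared markers (median -0.17) were below 0. Of 6 markers of striosomes, which are patches of the striatum, 6 were below 0, with a median of -0.54, and of -0.42 with all animals, none called. The part of these other markers in the input values was not tested.

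**Figure D3:**
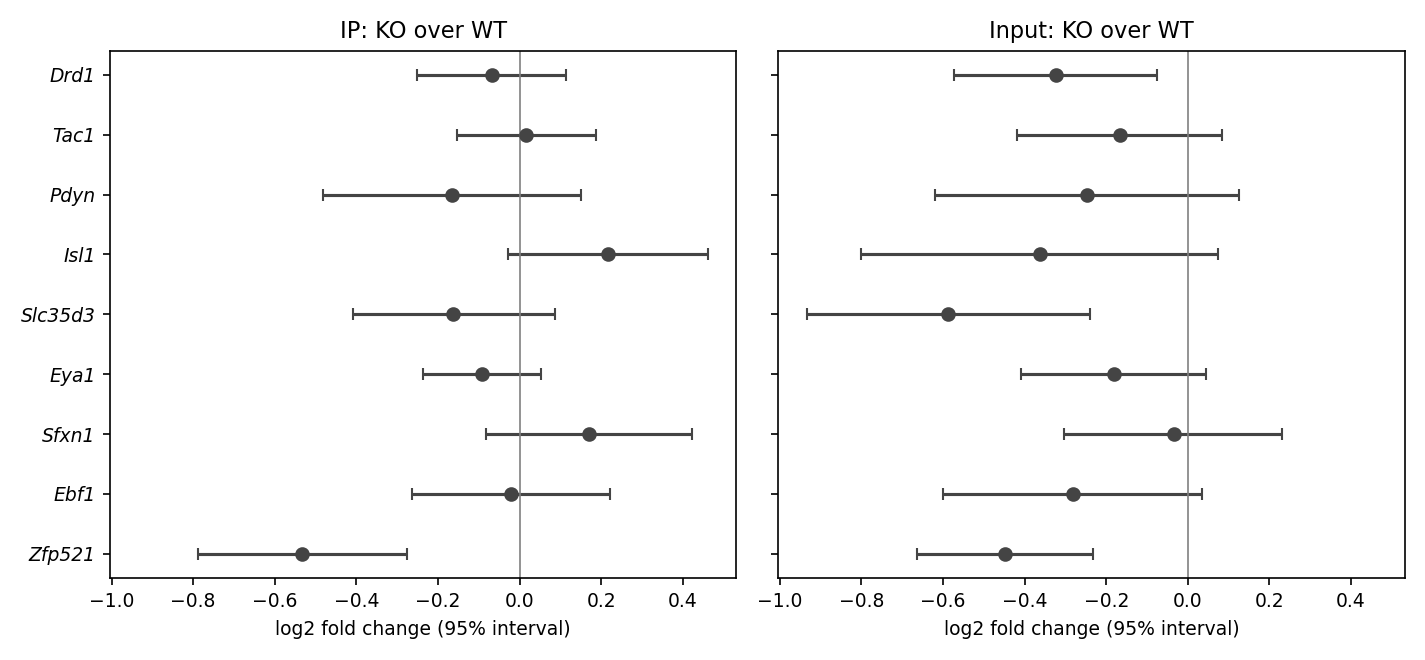
Log2 fold change of KO over WT for the 9 D1 genes in IP (left) and input (right), with 95% intervals from edgeR. In IP the intervals of 8 genes include 0 and that of Zfp521 does not, and in input all 9 points lie below 0, with the intervals of Drd1, Slc35d3 and Zfp521 wholly below it.

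Whether the pulldown enriched D1 mRNAs differently in the mutant was tested as the interaction of genotype and assay. No gene was called in either direction among 17311 (0% higher and 0% lower), and 2 of the 9 D1 genes were higher at an unadjusted p under 0.05, as were 1.95% of all genes. These were Isl1, at 0.57 ± 0.24 (SE, edgeR adjusted p = 1), and Slc35d3, at 0.42 ± 0.20 (edgeR adjusted p = 1). Of the 9, 8 had a value above 0, which means a larger ratio in KO, and Zfp521 had -0.10 ± 0.16, where 49.8% of all genes were below 0. The same lean was seen in related lists, with 0 of 7 D2 markers and 2 of 18 markers shared by both neuron types below 0. The median was 0.196 for the D1 genes, 0.265 for the D2 markers and 0.117 for the shared markers. Neither Isl1 nor Slc35d3 was called between the genotypes in IP or in input. Without KO animal 9 the Isl1 value was 0.35, and without animals 1, 3, 9 and 12 the Slc35d3 value was 0.146.

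For Sfxn1 the genotypes did not overlap in the ratio. The log2 ratio of IP over input was 0.77, 0.88, 0.92, 0.77 and 0.81 in KO animals 2, 3, 9, 10 and 11, against 0.55 to 0.71 (median 0.62) in WT animals. Such a gap with KO higher held for 0.237% of genes, and WT animal 20, high in both assays, was not apart in the ratio at 0.60. The interaction was 0.20 ± 0.20 (SE) and, with the animal kept as a block, 0.20 ± 0.07, and the edgeR adjusted p was 1 in both fits. With the block, the 95% interval was also above 0 for Drd1 (0.01 to 0.49), Ebf1 (0.06 to 0.48), Isl1 (0.10 to 1.10) and Slc35d3 (0.06 to 0.83), each with an edgeR adjusted p = 1. In this blocked fit 2.21% of all genes were higher at an unadjusted p under 0.05. Values of the D2 and shared markers were not taken from this fit, and it was not repeated with animals left out.

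Other gene lists placed these genes among their neighbours in function and cell type. Of 3 other genes enriched in D1 neurons, all 3 rose in IP over input. Chrm4, a muscarinic receptor, rose by 1.999 ± 0.164 (SE) on the log2 scale in KO and 2.104 ± 0.150 in WT, Foxp2, a forkhead factor, by 1.32 ± 0.09 in KO and 1.25 ± 0.08 in WT, and Reln, the secreted protein reelin, by 1.25 ± 0.13 in KO and 1.20 ± 0.12 in WT. Of 18 markers shared by D1 and D2 neurons, 18 rose in KO (median 0.78) and 17 in WT (median 0.75). Bcl11b, a zinc finger factor, rose by 1.41 ± 0.09 in KO and 1.17 ± 0.08 in WT, and Pde10a, a phosphodiesterase, by 1.32 ± 0.11 in KO and 1.14 ± 0.10 in WT. The medians of the shared markers thus lay near the values of Tac1 and Sfxn1. Zfp521, at 0.47 in KO and 0.57 in WT, lay below the median of the shared markers in both genotypes.

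D2 markers lay at the other end. Of the 7 matched in the files, 6 fell in IP over input and 1 rose in both genotypes, with a median of -3.54 in KO and -3.65 in WT, where 26.4% of all genes were called lower in KO and 27.8% in WT. Without animals 1, 3, 9 and 12, none was called higher, and 5 of 7 were called lower in KO and 6 of 7 in WT. Drd2, the D2 receptor, had a log2 fold change of -3.54 ± 0.16 (SE) in KO and -3.65 ± 0.15 in WT. Adora2a, an adenosine receptor, was at -4.17 ± 0.20 in KO and -4.72 ± 0.19 in WT, and Gpr6, an orphan receptor, at -3.76 ± 0.24 in KO and -4.12 ± 0.23 in WT. The gene that rose was Six3, a homeobox factor, at 0.32 in KO and 0.31 in WT, named here after its value was seen. Without the same 4 animals Six3 was at 0.38 (edgeR adjusted p = 0.0518) in KO and 0.27 (adjusted p = 0.104) in WT, and Plxdc1, the D2 marker whose call was lost, at -0.81 (adjusted p = 0.131) in KO. The summed CPM of the D1 genes divided by that of the D2 markers was 18.5 to 25.7 in KO IP and 17.8 to 25.3 in WT IP, against the values near 1 given above for input. Markers of several other cell types were also depleted, but not those of cortical excitatory neurons as a list. In both genotypes 7 of 7 markers each of astrocytes, oligodendrocytes and microglia were lower in IP. Of 8 markers of interneurons that are not cholinergic, 6 were lower in KO and 7 in WT. Of 10 cortical excitatory markers, 1 was lower, 1 higher and 8 not called in each genotype. Slc17a7 lay at 19.6 to 80.5 CPM in the IP of animals 1, 3, 9 and 12, against 0.0542 to 1.49 CPM in the IP of the other 7 animals. Of 6 markers of striosomes, the patches of the striatum rich in opioid receptors, 2 rose in KO (Tshz1 at 0.74 ± 0.11 and Lypd1 at 0.68 ± 0.18) and 1 in WT (Tshz1 at 0.81 ± 0.10).

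**Figure D4:**
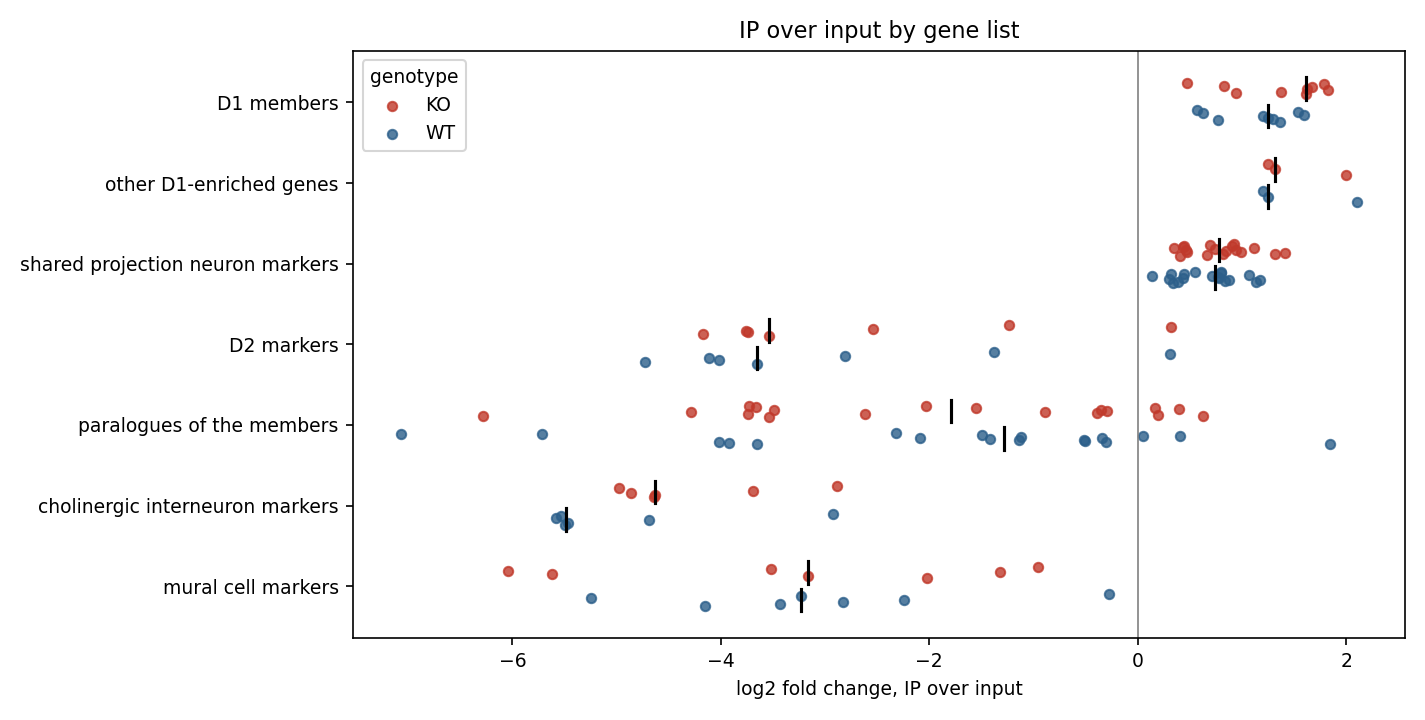
Log2 fold change of IP over input for the members of 7 gene lists, with KO (red) above WT (blue), 1 point per gene and the list median as a bar. The D1 genes and the other D1-enriched genes lie above 0, the shared projection neuron markers lie between 0 and 1.5, and 6 of 7 D2 markers and all cholinergic and mural markers tested lie below 0.

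Isl1 and Ebf1 are also used by other cells of the striatum, so markers of those cells were set beside them. Isl1 is made by cholinergic interneurons, whose 6 tested markers all fell in both genotypes. Chat, the enzyme that makes acetylcholine, had a log2 fold change of -4.64 ± 0.49 (SE) in KO and -5.50 ± 0.48 in WT. Slc5a7, the choline transporter, was at -4.86 ± 0.47 in KO and -4.69 ± 0.43 in WT, and Slc18a3, the vesicular transporter, at -4.63 ± 0.84 in KO and -5.47 ± 0.79 in WT. The summed CPM of the cholinergic list was 2.17 to 5.04 in KO IP and 2.34 to 7.10 in WT IP, against 34.9 to 62.4 in KO input and 36.0 to 66.4 in WT input. Ebf1 is also found in mural cells of vessels, of whose 7 markers 5 fell in KO and 6 in WT. Their summed CPM was 2.81 to 13.7 in KO IP and 3.80 to 9.68 in WT IP, against 38.6 to 65.6 in KO input and 38.2 to 53.5 in WT input. Rgs5, a regulator of G protein signalling in pericytes, was at -3.16 ± 0.39 in KO and -3.44 ± 0.36 in WT, and Vtn, vitronectin, at -6.05 ± 0.78 in KO and -5.25 ± 0.66 in WT. Pdgfrb, a growth factor receptor of mural cells, was at -2.03 ± 0.66 in KO and -4.15 ± 0.68 in WT.

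Partners of the 9 genes were mixed. Of 15 genes for the trafficking and G protein coupling of the D1 receptor, 8 rose and 2 fell in KO, and 10 rose and 2 fell in WT. Gnal, the olfactory-type G protein subunit through which the striatal D1 receptor signals, rose by 0.94 ± 0.09 (SE) on the log2 scale in KO and 0.77 ± 0.08 in WT, and Adcy5, the main striatal adenylyl cyclase, by 0.85 ± 0.10 in KO and 0.78 ± 0.09 in WT, and both also belong to the list of shared markers. The 2 that fell in both genotypes, named after their values were seen, were Gnas and Grk3. Gnas was at -2.36 ± 0.69 in KO and -2.98 ± 0.66 in WT, and Grk3 at -2.03 ± 0.70 in KO and -2.13 ± 0.655 in WT. Levels of Gnas in IP were low and variable, at 3.60 ± 3.65 CPM (SD) in KO and 1.88 ± 2.41 CPM in WT. Of 9 genes for neuropeptide processing, 3 rose and 2 fell in KO, and 4 rose and 2 fell in WT. Pcsk2, a convertase that cleaves prodynorphin, rose by 0.84 ± 0.11 in KO and 0.72 ± 0.10 in WT, while Cpe, the carboxypeptidase of the same pathway, fell, at -1.16 ± 0.14 in KO and -1.10 ± 0.13 in WT. The receptors for the peptides differed among themselves. Tacr1, the substance P receptor, fell, at -2.89 ± 0.34 in KO and -2.92 ± 0.32 in WT. Tacr3, the neurokinin B receptor, was at -1.39 ± 0.62 (not called) in KO and -2.91 ± 0.59 in WT, and Oprk1, the kappa opioid receptor for dynorphin, rose by 0.44 ± 0.18 in KO and was at 0.28 ± 0.17 (not called) in WT. Tacr2 had too few reads to be tested.

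Among 15 tested transcription partners, 8 rose and 6 fell in KO, and 7 rose and 5 fell in WT. Dach1, a cofactor of the same network as Eya1, rose by 1.20 ± 0.12 (SE) on the log2 scale in KO and 1.06 ± 0.11 in WT, and Chd4, a remodeller of the NuRD complex, by 0.82 ± 0.09 in KO and 0.89 ± 0.08 in WT. Lhx8, a LIM factor of cholinergic neurons, fell, at -4.97 ± 0.61 in KO and -5.53 ± 0.58 in WT. Of 24 relatives of the 9 genes by family, 18 were tested, of which 1 rose and 11 fell in KO and 2 rose and 11 fell in WT. Sfxn5, a relative of Sfxn1, fell, at -1.55 ± 0.12 in KO and -1.49 ± 0.11 in WT, as did Zfp423, the closest relative of Zfp521, at -2.04 ± 0.40 in KO and -2.32 ± 0.37 in WT. The relative that rose in both genotypes was Sfxn3, at 0.40 ± 0.10 in KO and 0.41 ± 0.09 in WT. Drd3 rose in WT only, at 1.84 ± 0.55, against 0.63 ± 0.59 (not called) in KO. Its mean level in WT was 2.32 CPM in IP and 0.483 CPM in input. Sfxn3 and Drd3 were named after their values were seen. The relatives also include Drd2 and Penk of the D2 list.

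Across the 22 libraries, the genes most like Drd1 by Pearson's r of log2 CPM were Kcnd2 (0.99), Atp2b1, Cyld, Tnks2 and Slmap (each 0.98), out of 17310. Of the D1 genes, Eya1 was at place 33 in this order, Pdyn at 163, Slc35d3 at 189, Isl1 at 231, Tac1 at 240, Ebf1 at 262, Sfxn1 at 1503 and Zfp521 at 2683. These values describe the libraries only, which fall into IP and input, so any gene enriched in the pulldown correlates with Drd1.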

How the data were processed

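Mouse striatum was measured by RNA sequencing of ribosome pulldown (IP) and input libraries of 5 KO and 6 WT animals. The deposited tables hold raw counts by gene symbol. Reads were aligned with STAR to mm10 and counted with featureCounts, per the submitters' processing notes (versions not given). Libraries were not strand-specific and were run in a single batch, per the labels' protocols. The authors also deposited tables of genotype comparisons with log2 fold changes and p-values made with DESeq2, per the file headers and the submitters' processing notes. The mean signal and score columns of those deposited tables were not used. Columns that match no sample numbered 0.

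Counts were tested with edgeR 4.0.16 in R 4.3.3 (TMM, filterByExpr, robust quasi-likelihood, Benjamini-Hochberg at 0.05 over all genes tested). Genotypes were compared within each assay, and IP with input over all 22 libraries in 4 groups. Overlap between exons of different genes was checked in GENCODE vM21, in which all 55341 symbols were found. Ratios per animal used CPM scaled over all 22 libraries, log2 with a prior count of 2. DESeq2 1.42.0, RLE scaling, no filter, each animal left out, and (added after seeing the data) animals 1, 3, 9 and 12 left out were alternatives. The scripts were tested on simulated data.

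The 9 genes, the lists and the tests were chosen with earlier results of these data known. All 9 genes are named, with up to 4 genes of smallest p from each other list, every gene of lists of at most 4, and Fmr1, Slc17a7, and fixed markers beside Isl1 and Ebf1. The animal number pairs IP and input, since both come from one lysate per the labels. Over 8299 genes the deviations of paired libraries correlated at 0.247 to 0.523, and each of 11 IP libraries matched its own input best. Totals of 9375611 to 82376192 counts gave the 9 genes at least 135 reads in any library.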

Additional observations from a re-analysis of the deposited data

Results flagged for a closer look

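In 54 groups of libraries or animals of a D1 gene, 4 held a value far from the others of its group by a gap test at the 95% level, which chance alone gives in about 1 in 20 groups. Drd1 had a log2 ratio of IP over input of 1.852 in WT animal 12, against 1.085 to 1.368 in the other WT animals. This animal is 1 of the 4 with high cortical markers. Tac1 had a log2 CPM of 6.761 in the input of KO animal 9, against 7.356 to 7.483 in the other KO inputs. This input had the highest cortical marker sum of all libraries, at 609 CPM. Sfxn1 had a log2 CPM of 9.402 in the IP of WT animal 20, against 8.544 to 8.818 in the other WT animals, and of 8.379 in its input, against 7.554 to 7.817. The part of cortical tissue in these values was not tested.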

How the results depend on the processing

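The 9 calls of IP over input were made in KO and in WT under each alternative run: RLE scaling, no filter, DESeq2, the replicate block, each animal left out, and animals 1, 3, 9 and 12 left out. With the animal as a replicate block, 9 of 9 genes were called in both genotypes and the interaction gave 0 calls, so the block changed no call of the 9 genes. Over all genes the blocked fit called 8906 in KO and 9319 in WT. The fit without the block called 3610 higher and 4578 lower in KO, and 3779 higher and 4806 lower in WT. The genotype comparisons of the D1 genes changed with the tool, with 1 of 9 genes called by DESeq2 in IP and 1 of 9 in input, against 0 by edgeR. Over all genes, DESeq2 called 10 higher and 65 lower in KO IP and 2 higher and 26 lower in KO input, edgeR 8 and 3 genes, all lower, and the cause was not tested. In the interaction both tools called 0 of the 9 genes. The median ratio of the 9 genes lay between 1.511 and 1.687 in KO and between 1.219 and 1.319 in WT when each animal was left out.

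Leaving out an animal moved several uncalled values by over 1.5 times, and values near 0 changed sign. With each animal left out, log2 fold changes of KO over WT in IP ranged from -0.045 to 0.054 for Tac1 and from -0.101 to 0.056 for Ebf1, that of Sfxn1 in input from -0.089 to 0.107, and the interaction from -0.006 to 0.132 for Eya1 and from -0.167 to 0.010 for Zfp521. Without animals 1, 3, 9 and 12, Tac1 was at -0.036 and Ebf1 at 0.045 in IP, and the interaction of Eya1 was -0.044. With 5 and 6 animals, the interval of Isl1 in input was the widest of the 9, and its input libraries held the fewest reads.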

Other observations

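Reln, from the list of other D1-enriched genes, was at 188, 228, 203, 246 and 198 CPM in the IP of KO animals 2, 3, 9, 10 and 11, against 230 to 353 CPM in WT IP. In input it was at 68.3, 76.7, 56.2, 77.4 and 54.4 CPM in the same KO animals, against 73 to 113 CPM in WT animals. The genotypes overlapped through WT animal 1, the lowest WT animal in both assays. The log2 fold change in KO over WT was -0.49 ± 0.10 (SE) in IP (edgeR adjusted p = 0.13) and -0.55 ± 0.12 in input (edgeR adjusted p = 0.276), while DESeq2 gave adjusted p = 0.00437 in IP and 0.0275 in input. In the authors' deposited table, Reln had an adjusted p = 0.0091 in IP and 0.0379 in input.

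Of the 9 genes for neuropeptide processing, all 9 had a log2 fold change below 0 in KO over WT in IP, with a median of -0.18, where 49.3% of all genes were below 0, and none was called by edgeR. Their values ran from -0.47 to -0.02, with Scg5 at -0.02 ± 0.24 (SE) and Cpe at -0.02 ± 0.14. In input 7 of 9 were below 0, and Pcsk1n was at 0.27 ± 0.10 (edgeR adjusted p = 0.621). Pam, the enzyme that amidates peptides such as substance P, was at -0.47 ± 0.11 (SE, edgeR adjusted p = 0.176, DESeq2 adjusted p = 0.0112) in IP. In input it was at -0.30 ± 0.11 (edgeR adjusted p = 0.621, DESeq2 adjusted p = 0.518).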
